A study of Mus musculus with 6 samples.

Results

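Pyruvate entry and the tricarboxylic acid (TCA) cycle were described here through 30 genes of the mitochondrial pyruvate carrier, the pyruvate dehydrogenase complex with its kinases and phosphatase, the cycle enzymes and the malate-aspartate shuttle. The genes were found by symbol in the annotated expression table, and all 30 were present among its 26881 genes. The study asked what Cfp1, encoded by Cxxc1, does in the maturing heart. Hearts of 3 Cfp1-cKO and 3 WT mouse samples were compared at 2 weeks of age by RNA sequencing. The Cfp1-cKO genotype was Myh6-Cre: Cfp1 flox/flox, labelled Cxxc1 null, and the WT samples were labelled wild type. Myh6-Cre acts in cardiomyocytes, so the other cells of the heart kept Cfp1, and the RNA was that of whole hearts. The study's mice were on the C57BL/6 background. No source used here states whether 1 sample was 1 heart, and the p-values therefore cover only sample-to-sample spread, which may be technical.

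Pyruvate made by glycolysis crosses the inner mitochondrial membrane through a carrier built of Mpc1 and Mpc2. In the matrix the pyruvate dehydrogenase complex turns it into acetyl-CoA. Pyruvate dehydrogenase kinases switch this complex off by phosphorylation, and phosphatases such as Pdp1 switch it on again. Acetyl-CoA from pyruvate and from fatty acids is oxidised in the TCA cycle, which hands its electrons to the respiratory chain. The malate-aspartate shuttle brings the reducing equivalents of cytosolic NADH into the matrix. The heart depends on this oxidation throughout life, and fatty acids become its main fuel after birth.

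Cfp1 binds DNA that holds unmethylated CpG, so the promoter windows of members on which the results turn are shown first. Each window runs over 300 bases, 250 before and 50 after a transcription start, and is the RefSeq sequence of GRCm38.p6, written 5′ to 3′ on the strand of the gene with every CpG in capitals. Mpc1 and Mpc2 encode the carrier. Pdk1 and Pdk2 are 2 kinases whose ratio differed most between the genotypes among the ratios of members computed here. Sdhd had the lowest fold change of the cycle enzymes. The windows are chr17:8283537-8283836 for Mpc1, chr1:165461010-165461309 for Mpc2, chr2:71872974-71873273 for Pdk1, chr11:95041322-95041621 on the minus strand for Pdk2 and chr9:50603800-50604099 on the minus strand for Sdhd.
Mpc1: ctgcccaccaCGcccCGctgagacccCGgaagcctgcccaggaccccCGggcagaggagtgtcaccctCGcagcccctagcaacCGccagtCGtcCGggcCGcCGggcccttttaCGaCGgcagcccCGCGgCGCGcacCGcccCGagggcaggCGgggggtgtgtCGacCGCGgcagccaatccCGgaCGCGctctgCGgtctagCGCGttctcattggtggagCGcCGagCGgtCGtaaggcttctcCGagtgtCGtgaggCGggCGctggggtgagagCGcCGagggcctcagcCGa
Mpc2: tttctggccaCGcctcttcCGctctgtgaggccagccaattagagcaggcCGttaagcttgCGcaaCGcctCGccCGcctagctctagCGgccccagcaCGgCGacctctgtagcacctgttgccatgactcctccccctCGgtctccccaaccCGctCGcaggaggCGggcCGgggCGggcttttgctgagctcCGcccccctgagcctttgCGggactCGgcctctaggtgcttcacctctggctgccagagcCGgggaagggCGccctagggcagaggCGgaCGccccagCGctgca
Pdk1: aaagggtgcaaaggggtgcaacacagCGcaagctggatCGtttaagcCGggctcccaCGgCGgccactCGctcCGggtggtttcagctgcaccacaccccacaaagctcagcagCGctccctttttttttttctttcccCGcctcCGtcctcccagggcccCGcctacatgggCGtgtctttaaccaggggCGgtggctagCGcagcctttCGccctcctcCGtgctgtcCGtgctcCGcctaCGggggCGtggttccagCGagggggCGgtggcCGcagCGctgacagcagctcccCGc
Pdk2: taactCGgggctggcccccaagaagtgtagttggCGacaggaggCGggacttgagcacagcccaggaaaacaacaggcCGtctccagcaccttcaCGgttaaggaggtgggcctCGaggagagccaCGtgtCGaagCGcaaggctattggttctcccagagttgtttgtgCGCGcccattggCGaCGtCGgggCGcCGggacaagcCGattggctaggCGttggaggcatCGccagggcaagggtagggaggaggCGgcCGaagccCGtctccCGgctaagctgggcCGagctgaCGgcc
Sdhd: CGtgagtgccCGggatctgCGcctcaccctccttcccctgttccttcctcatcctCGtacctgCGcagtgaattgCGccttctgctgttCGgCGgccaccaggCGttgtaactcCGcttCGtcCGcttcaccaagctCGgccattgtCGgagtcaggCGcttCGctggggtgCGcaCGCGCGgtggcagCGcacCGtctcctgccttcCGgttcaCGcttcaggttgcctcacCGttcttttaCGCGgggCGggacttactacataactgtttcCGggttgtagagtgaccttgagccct
The Mpc1 window held 39 CpG, the most of any member. The others shown held 24 CpG (Mpc2), 25 (Pdk1), 25 (Pdk2) and 29 (Sdhd). Mpc1, Pdk1 and Pdk2 each had a further window that is not shown, with 18, 2 and 13 CpG. Whether CpG numbers go with fold changes was not tested. Of the members, 27 had at least 1 window, and Pdp1, Idh3a and Sdhc had none. Over the 35 member windows the median was 24 CpG (range 2 to 39), against a median of 21 over 10465 windows of genes that were tested and 16 over 18625 windows of genes in the table. The transcription starts in the Mpc1 and Mpc2 windows lay 883 and 623 bases inside the genes as the expression table places them. That in the Sucla2 window, which is not shown, lay 27467 bases inside its gene.

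Motif letters were searched on both strands of these windows. CCGGAAG, the core bound by ETS factors such as GABP, was present in 6 of 35 member windows (17.1%), those of Dlst, Idh3b, Idh3g, Mpc1, Sdhb and Sdhd, in 17.5% of the windows of tested genes and in 13.1% of all windows. GGGCGGGG, bound by SP factors, was present in 11 of 35 member windows (31.4%), in 33.0% of the windows of tested genes and in 26.6% of all windows. By gene it was present in 9 of 27 members, as windows of Ogdh that overlap each other were counted separately. For both motifs the share in member windows was close to that in windows of tested genes. TCAAGGTCA, the letters bound by oestrogen-related receptors, was found in the Sdhd window alone among members and in 0.290% of all windows. The NRF1 letters GCGCATGCG were found in 2 windows of Ogdh that overlap each other (2.70% of all windows). The YY1 letters AAGATGGCG were found in one of Idh3g (2.12%) and TATAAA in one of Got2 (9.04%). A match is a description of letters and not of a bound site.

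The libraries held between 16672652 and 22700811 fragments, and every member had at least 316 fragments in every library. Values are FPKM, the fragments of a gene relative to its exon length and to the library total, which allow levels to be compared between genes. Cxxc1 itself stood at 8.02, 9.94 and 8.74 FPKM in the Cfp1-cKO hearts, against 9.66, 12.9 and 10.03 FPKM in the WT hearts, a log2 fold change of -0.26 that was not called (adjusted p = 0.249, limma), nor was the one of -0.66 after the scaling described next (adjusted p = 0.0571). Cfp1-cKO and WT values of Cxxc1 overlapped, and a value over all exons does not measure the floxed exons alone. The fold change of the median tested gene was 0.35 on the log2 scale, so each comparison was repeated after median-of-ratios scaling, which brought this median to 0.00. Markers of some other cell types moved with the genotype, while those of others overlapped. Of the lung epithelial markers, 11 of 11 tested were higher in the Cfp1-cKO samples, with summed levels between 3169 and 4799 FPKM. In the WT hearts they summed to 0.421 to 3.95 FPKM, and Lamp3, Nkx2-1 and Cldn18 were at 0. The tested ones passed the filter, a mean of at least 1 FPKM over all libraries, only through their Cfp1-cKO values. The direction of these 11 was therefore fixed by the filter, and their count adds nothing to the levels. The summed macrophage markers lay at 419 to 797 FPKM in the Cfp1-cKO hearts, against 55.7 to 65.3 FPKM in the WT hearts. Most of this sum was Lyz2, at 387 to 771 FPKM against 36.0 to 56.0 FPKM. Of the 6 macrophage markers 4 were called higher as deposited, where 21.1% of all tested genes were, and Adgre1 and Cd163 were not. After scaling 2 were called higher, Cd68 and Lyz2. Those of lymphocytes lay at 51.4 to 182 FPKM in the Cfp1-cKO hearts, against 0.153 to 0.620 FPKM in the WT hearts. Nearly all of it in Cfp1-cKO hearts was Igkc (48.9 to 180 FPKM, 0 in WT hearts). Igkc was the only lymphocyte marker above the filter, which it passed through its Cfp1-cKO values alone. Fibroblast markers summed to 450 to 727 FPKM in the Cfp1-cKO hearts, against 271 to 370 FPKM in the WT hearts. Of these, 1 of 8 was called higher as deposited, where 21.1% of all tested genes were, and 0 after scaling. Summed endothelial markers overlapped, at 170.6 to 245 FPKM in the Cfp1-cKO hearts and 130 to 171.1 FPKM in the WT hearts, with 2 of 7 called higher. Summed smooth muscle and erythroid markers overlapped as well, with 1 of 4 and 0 of 4 called higher. Of 6 atrial markers 2 were lower and 1 was higher, with sums of 348 to 643 FPKM in the Cfp1-cKO hearts, against 853 to 1480 FPKM in the WT hearts. The atrial myosin light chain Myl7 stood at 11.5 to 119 FPKM in the Cfp1-cKO hearts, against 557 to 920 FPKM in the WT hearts (log2 fold change -3.98, adjusted p = 0.0101, limma), and Sln was lower as well (-2.80, adjusted p = 0.00939), both called in either scaling. Nppa was the higher one, at 308 to 401 FPKM in the Cfp1-cKO hearts, against 118 to 281 FPKM in the WT hearts (1.01, adjusted p = 0.0408, limma). Its call was kept only without WT replicate 3, and it was not called after scaling (0.57). Myl4, Nr2f2 and Tbx5 were not called in either scaling. The 17 cardiomyocyte markers summed to 11673 to 15608 FPKM in the Cfp1-cKO hearts and to 11998 to 20951 FPKM in the WT hearts, with none at 0. Of these markers 3 were called lower and 1 higher. The mitochondrial genome took 29.6% to 34.9% of fragments in Cfp1-cKO hearts and 36.9% to 39.2% in WT hearts. The part of these shifts in the results that follow was not tested. Fewer cardiomyocytes, less RNA per cardiomyocyte and RNA of other tissue in the Cfp1-cKO samples cannot be told apart here.

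Of the 30 members, all of which passed the filter of a mean of at least 1 FPKM, 6 were lower and 1 was higher in Cfp1-cKO hearts. The lower genes were Mpc1, Mpc2, Idh3a, Sdha, Sdhd and Mdh1, and the higher gene was Pdk1. A gene was called at an adjusted p below 0.05 (limma, Benjamini-Hochberg over all tested genes) and an absolute log2 fold change above 0.5. Over the 11017 genes tested, 1.68% were called lower and 21.1% higher, so the members stood on the lower side while the table as a whole stood on the higher side. The median log2 fold change was -0.27 over the members, of which 24 were below 0, against 0.35 over all tested genes. The 3 Cfp1-cKO values lay below the 3 WT values for 15 members, where 3.23% of all tested genes did so, and above them for 1 member, where 46.4% did so. After median-of-ratios scaling 13 members were lower and none was higher at these thresholds, where 3.25% of tested genes were lower and 3.73% higher. No member was higher after scaling at an unadjusted p below 0.05 either (limma). With this scaling the median of the members was -0.71, 29 members were below 0, and the values of 24 members were lower in every Cfp1-cKO library than in every WT library, as were those of 14.9% of tested genes. Among these 24, Pdha1, Pdp1, Cs, Idh2, Suclg2, Sucla2, Sdhb, Mdh2 and Slc25a11 had values that overlapped as deposited. When the libraries were instead scaled to the cardiomyocyte markers, the median of the members was -0.20 and that of all tested genes 0.41, and Mpc1, Mpc2 and Pdk1 were called. The number of lower members was 3, 2 and 3 without Cfp1-cKO replicate 1, 2 or 3, and 1, 4 and 5 without WT replicate 1, 2 or 3. After scaling it was 8, 2 and 8 without Cfp1-cKO replicate 1, 2 or 3, and 2, 7 and 13 without WT replicate 1, 2 or 3, and Mpc1 and Mpc2 were the 2 that were left without Cfp1-cKO replicate 2 or WT replicate 1.

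**Figure D1:**
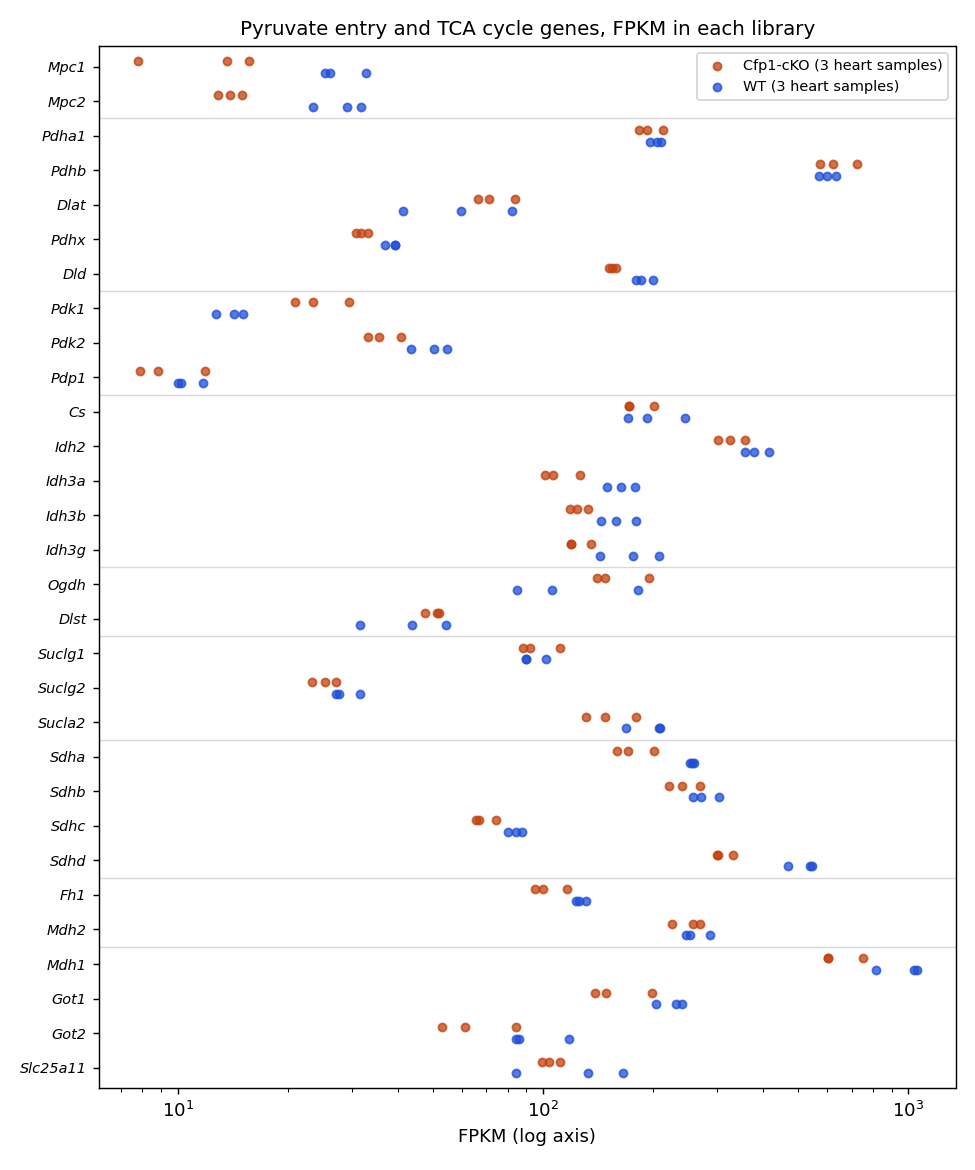
FPKM (log axis) of the 30 members, 1 point per library, with Cfp1-cKO above WT in each row and lines between the 9 functional groups. The Cfp1-cKO points of Mpc1, Mpc2, Sdha and Sdhd lie to the left of all WT points, and those of Pdk1 lie to the right.

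**Figure D2:**
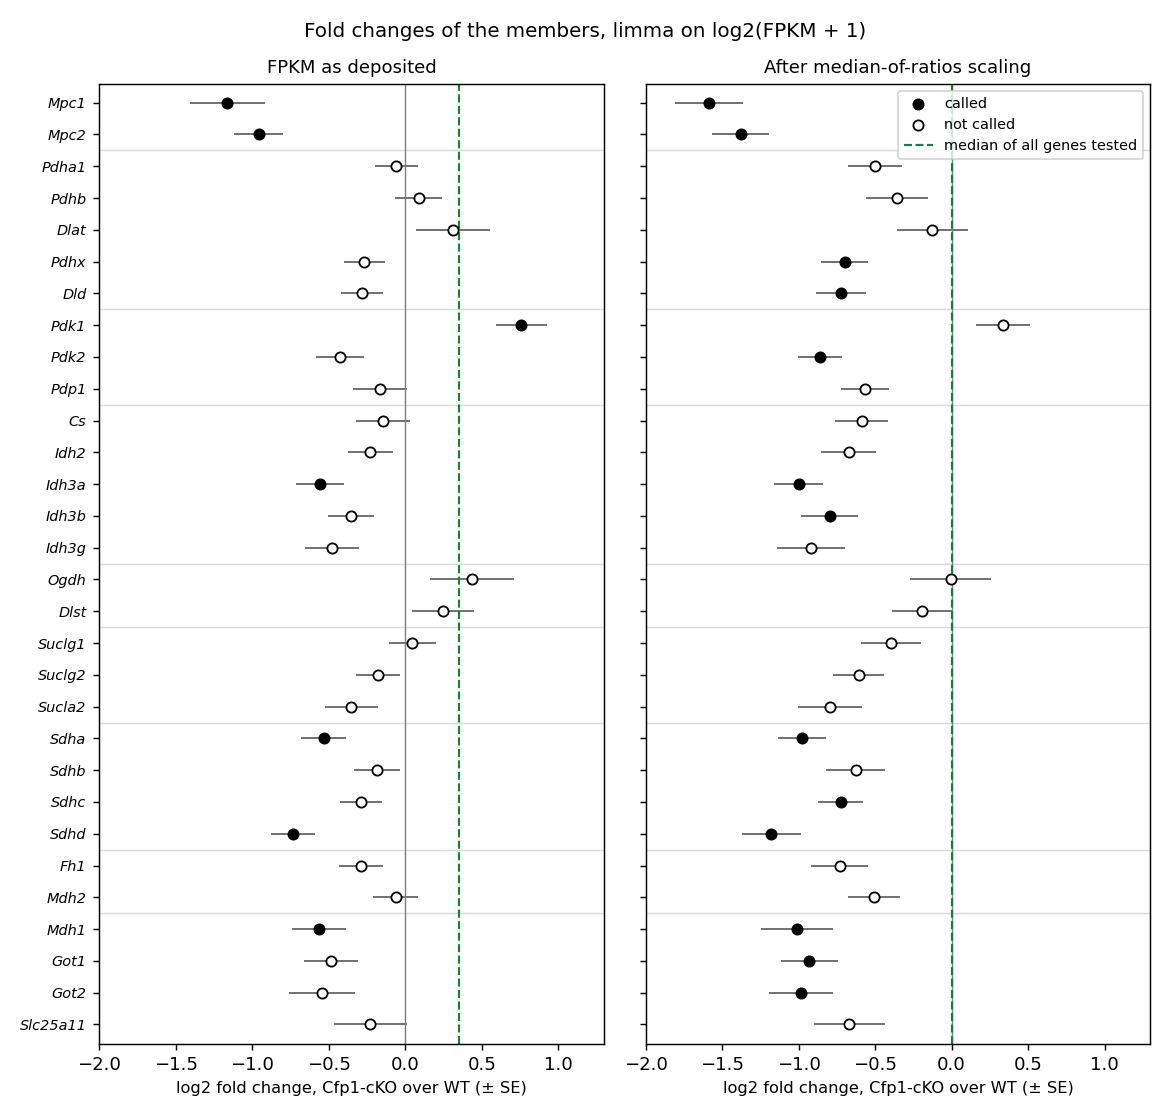
Log2 fold changes of Cfp1-cKO over WT (points) with standard errors (lines), for FPKM as deposited and after median-of-ratios scaling, with called members filled. The dashed line is the median of all tested genes, 0.35 as deposited and 0.00 after scaling, and most members lie to its left in both panels.

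Both subunits of the pyruvate carrier were about halved in Cfp1-cKO hearts, and they had the lowest fold changes of all members. Mpc1 (chromosome 17, 8282904 to 8297661 of GRCm38) stood at 7.79, 15.6 and 13.7 FPKM in the Cfp1-cKO hearts, against 32.8, 26.1 and 25.3 FPKM in the WT hearts. Its log2 fold change was -1.16 ± 0.25 (SE, adjusted p = 0.0179, limma), and -1.58 (adjusted p = 0.00807) after scaling. Mpc2 (chromosome 1, 165460637 to 165481214) stood at 13.9, 15.0 and 12.9 FPKM in the Cfp1-cKO hearts, against 29.1, 31.7 and 23.5 FPKM in the WT hearts. The groups did not overlap for either gene, and the low value of Mpc1 in Cfp1-cKO replicate 1 stood apart from the other 2. The log2 fold change of Mpc2 was -0.96 ± 0.16 (SE, adjusted p = 0.00902, limma), and -1.38 (adjusted p = 0.00663) after scaling. Mpc2 was called whichever library was left out, whereas Mpc1 was not called without WT replicate 1 (adjusted p = 0.0624). Exons of the antisense gene 4930506C21Rik cover 23.1% of the Mpc1 exon bases, and no source used here states whether counting used strand. The same holds for Pdha1, with 16.1% of its exon bases under Map3k15, and for Slc25a11, with 8.92% under Rnf167, while no other member had over 2.03%.

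**Figure D3:**
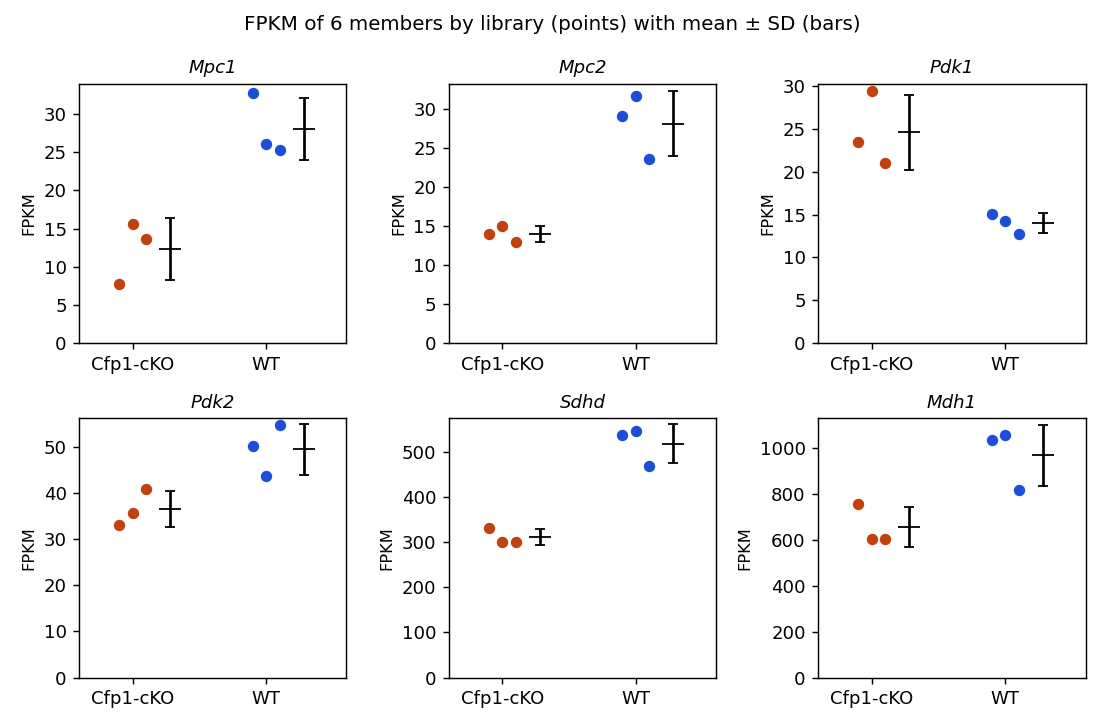
FPKM of the carrier subunits Mpc1 and Mpc2, the kinases Pdk1 and Pdk2, the succinate dehydrogenase subunit Sdhd and the cytosolic malate dehydrogenase Mdh1, on linear axes from 0. Points are the 3 libraries of each genotype and bars are the mean ± SD, and the groups do not overlap in any of the 6 panels.

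The pyruvate dehydrogenase complex, which the carrier supplies, showed no called gene among its 5 subunits as deposited, and their median log2 fold change was -0.06. At an unadjusted p below 0.05 the count was also 0, both by limma and by voom on recovered fragments, which tested 4 of the 5. Pdha1 and Pdhb encode the E1 subunits that decarboxylate pyruvate, and Pdhb was the most abundant subunit, at 724, 623 and 574 FPKM in the Cfp1-cKO hearts and 632, 570 and 598 FPKM in the WT hearts. Pdha1 lay at 184 to 213 FPKM in the Cfp1-cKO hearts, against 197 to 211 FPKM in the WT hearts. Levels of both overlapped between the genotypes. Dlat, the E2 subunit that makes acetyl-CoA, had the highest fold change of the complex (0.31, adjusted p = 0.331, limma), at 71.1, 66.3 and 83.6 FPKM in the Cfp1-cKO hearts and 59.7, 41.4 and 82.1 FPKM in the WT hearts. Dld, the E3 subunit that is shared with the oxoglutarate dehydrogenase complex, stood at 154, 159 and 151 FPKM in the Cfp1-cKO hearts and at 200, 186 and 180 FPKM in the WT hearts. Its groups did not overlap, but its log2 fold change of -0.28 was not called (adjusted p = 0.141). Pdhx, which anchors E3 to the E2 core, stood at 31.7, 33.2 and 30.7 FPKM in the Cfp1-cKO hearts and at 39.4, 39.4 and 36.9 FPKM in the WT hearts, with a log2 fold change of -0.27 (adjusted p = 0.152). After scaling Pdhx (-0.70, adjusted p = 0.0352) and Dld (-0.72, adjusted p = 0.0403) were called lower, each only with all libraries or without WT replicate 3.

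Of the 3 regulators of the complex, 1 was called as deposited. Pdk1 was higher in Cfp1-cKO hearts, at 23.4, 29.5 and 20.99 FPKM, against 15.1, 14.3 and 12.7 FPKM in the WT hearts. Its log2 fold change was 0.76 ± 0.17 (SE, adjusted p = 0.0203, limma). It was not called after median-of-ratios scaling (0.34, adjusted p = 0.284), nor without Cfp1-cKO replicate 2 (adjusted p = 0.0865) or WT replicate 1 (adjusted p = 0.0576). Pdk2 stood at 33.1, 35.6 and 40.9 FPKM in the Cfp1-cKO hearts and at 50.2, 43.6 and 54.6 FPKM in the WT hearts. The groups did not overlap, with a log2 fold change of -0.43 (adjusted p = 0.0748) as deposited and a called one of -0.86 (adjusted p = 0.0146) after scaling. The scaled call of Pdk2 was lost without Cfp1-cKO replicate 1 or 2 or WT replicate 1. The phosphatase Pdp1 stood at 7.87, 8.86 and 11.9 FPKM in the Cfp1-cKO hearts and at 11.7, 10.02 and 10.2 FPKM in the WT hearts, and its values overlapped. The ratio of Pdk1 to Pdk2 within a library, which no scaling between libraries can change, was 0.708, 0.828 and 0.513 in Cfp1-cKO hearts, against 0.301, 0.328 and 0.233 in WT hearts. It was 2.35 times as high in Cfp1-cKO hearts, and Pdk2 remained above Pdk1 in all 6 libraries.

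Of the 5 genes of citrate synthase and the isocitrate dehydrogenases, 1 was called lower, and all 5 fold changes were below 0. Cs, which joins acetyl-CoA to oxaloacetate, stood at 171, 172 and 201 FPKM in the Cfp1-cKO hearts and at 192, 170 and 245 FPKM in the WT hearts, and these values overlapped. The NAD-dependent isocitrate dehydrogenase is built of the catalytic Idh3a and of Idh3b and Idh3g. Idh3a was lower, at 107, 101 and 126 FPKM in the Cfp1-cKO hearts, against 164, 150 and 179 FPKM in the WT hearts (log2 fold change -0.56 ± 0.15, SE, adjusted p = 0.0367, limma). Idh3b stood at 133, 124 and 119 FPKM in the Cfp1-cKO hearts and at 180, 159 and 144 FPKM in the WT hearts. Idh3g lay at 119 to 136 FPKM in the Cfp1-cKO hearts, against 143 to 208 FPKM in the WT hearts. The groups of all 3 subunits stood apart, and the log2 fold changes of Idh3b and Idh3g were -0.35 (adjusted p = 0.103) and -0.48 (adjusted p = 0.0733). After scaling Idh3a (-0.999, adjusted p = 0.0129) and Idh3b (-0.80, adjusted p = 0.0454) were called lower, while Idh3g (-0.92, adjusted p = 0.0501) just missed the threshold. The scaled call of Idh3b was kept only when WT replicate 3 was the library left out. The call of Idh3a as deposited was kept only when WT replicate 2 was the library left out. Idh2, the NADP-dependent enzyme of the matrix, stood at 325, 301 and 358 FPKM in the Cfp1-cKO hearts and at 415, 379 and 358 FPKM in the WT hearts, so that its highest Cfp1-cKO value met its lowest WT value.

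The oxoglutarate dehydrogenase complex was the only group of the 9 with a median fold change above 0, at 0.34 on the log2 scale, close to the 0.35 of all tested genes. Ogdh, its E1 subunit, stood at 148, 141 and 195 FPKM in the Cfp1-cKO hearts and at 106, 85.0 and 181 FPKM in the WT hearts. Dlst, its E2 subunit, stood at 51.4, 47.6 and 52.0 FPKM in the Cfp1-cKO hearts and at 43.8, 31.6 and 54.4 FPKM in the WT hearts. In both genes WT replicate 3 stood well above the other WT libraries and the groups overlapped. Neither was called (adjusted p = 0.243 for Ogdh and 0.362 for Dlst, limma), and after scaling their log2 fold changes were -0.01 and -0.19.

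Succinyl-CoA ligase turns succinyl-CoA into succinate with formation of ATP or GTP, and none of its 3 genes was called in either scaling. At an unadjusted p below 0.05 the count was 0 as deposited, by limma and by voom, and 2 were lower after scaling. Suclg1, the subunit shared by both forms, stood at 112, 88.0 and 92.2 FPKM in the Cfp1-cKO hearts and at 102, 89.8 and 90.0 FPKM in the WT hearts. Sucla2, which makes the enzyme specific for ADP, stood at 180, 148 and 131 FPKM in the Cfp1-cKO hearts and at 208, 168 and 209 FPKM in the WT hearts, with a log2 fold change of -0.35 (adjusted p = 0.152, limma). Suclg2, the subunit of the GDP form, ran at lower levels in both genotypes, at 23.3 to 27.1 FPKM in the Cfp1-cKO hearts, against 27.1 to 31.5 FPKM in the WT hearts. As deposited, the values of all 3 genes overlapped between the genotypes. After scaling, those of Sucla2 and Suclg2 were lower in every Cfp1-cKO library than in every WT library.

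Succinate dehydrogenase is both an enzyme of the cycle and complex II of the respiratory chain, and 2 of its 4 subunits were lower in Cfp1-cKO hearts. Sdhd, a membrane anchor that helps to bind ubiquinone, stood at 332, 299 and 301 FPKM in the Cfp1-cKO hearts, against 538, 547 and 469 FPKM in the WT hearts. Its log2 fold change was -0.73 ± 0.15 (SE, adjusted p = 0.0148, limma), and -1.18 (adjusted p = 0.0134) after scaling. Sdha, the flavoprotein that oxidises succinate, stood at 159, 171 and 201 FPKM in the Cfp1-cKO hearts, against 253, 255 and 259 FPKM in the WT hearts. The WT values of Sdha were nearly equal to each other and all Cfp1-cKO values lay below them. Its log2 fold change was -0.53 ± 0.15 (SE, adjusted p = 0.0367, limma), and -0.98 (adjusted p = 0.0127) after scaling. Sdhc, the other anchor, stood at 66.7, 65.8 and 74.1 FPKM in the Cfp1-cKO hearts and at 80.3, 84.3 and 87.8 FPKM in the WT hearts, a log2 fold change of -0.29 (adjusted p = 0.141) that was called only after scaling (-0.73, adjusted p = 0.0305), and there only with all libraries or without WT replicate 3. Sdhb, the iron-sulphur subunit, stood at 269, 241 and 222 FPKM in the Cfp1-cKO hearts and at 302, 270 and 258 FPKM in the WT hearts, with overlapping groups and a log2 fold change of -0.18 (adjusted p = 0.358). The call of Sdhd as deposited was lost without Cfp1-cKO replicate 2 (adjusted p = 0.0692) or WT replicate 1 (adjusted p = 0.0652), and that of Sdha was lost whichever library was left out.

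Fumarase and the mitochondrial malate dehydrogenase, which regenerate oxaloacetate, were not called in either scaling. At an unadjusted p below 0.05 the count was 0 as deposited, by limma and by voom, and both were lower after scaling. Fh1 stood at 117, 94.8 and 99.8 FPKM in the Cfp1-cKO hearts and at 131, 123 and 126 FPKM in the WT hearts, and its groups did not overlap (log2 fold change -0.29, adjusted p = 0.153, limma). Mdh2 stood at 257, 226 and 270 FPKM in the Cfp1-cKO hearts and at 252, 247 and 286 FPKM in the WT hearts. Its values overlapped, with a log2 fold change of -0.06 (adjusted p = 0.761).

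The malate-aspartate shuttle pairs cytosolic and mitochondrial forms of malate dehydrogenase and aspartate aminotransferase with the oxoglutarate-malate carrier Slc25a11. Mdh1, the cytosolic dehydrogenase and the most abundant member in WT hearts, was the only gene of the 4 that was called lower as deposited. It stood at 754, 602 and 604 FPKM in the Cfp1-cKO hearts, against 1034, 1053 and 814 FPKM in the WT hearts. Its log2 fold change was -0.56 ± 0.18 (SE, adjusted p = 0.0496, limma), close to the threshold, and the call was kept only when WT replicate 3 was the library left out. After scaling it was -1.01 (adjusted p = 0.0433), a call lost without Cfp1-cKO replicate 2 or 3 or WT replicate 1 or 2. Got1, the cytosolic aminotransferase, stood at 149, 139 and 199 FPKM in the Cfp1-cKO hearts and at 204, 231 and 241 FPKM in the WT hearts. Got2, its mitochondrial counterpart, stood at 61.3, 52.9 and 84.3 FPKM in the Cfp1-cKO hearts and at 86.0, 84.6 and 118 FPKM in the WT hearts. The groups of both stood apart, Got2 by a narrow gap between Cfp1-cKO replicate 3 and WT replicate 2. Their log2 fold changes were -0.49 (adjusted p = 0.0740) and -0.54 (adjusted p = 0.0904) as deposited, and both were called after scaling (Got1 -0.93, adjusted p = 0.0282, and Got2 -0.98, adjusted p = 0.0345). Without Cfp1-cKO replicate 1 or 2 or WT replicate 1 or 2, neither scaled call of these aminotransferases held, and that of Got2 was also lost without WT replicate 3. Slc25a11 stood at 104, 99.5 and 112 FPKM in the Cfp1-cKO hearts and at 132, 84.6 and 166 FPKM in the WT hearts, where the spread between WT libraries spanned all Cfp1-cKO values.

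The proportions of members to each other were compared within libraries. Of 20 ratios between members of the same complex or step, computed within each library, 5 did not overlap between the genotypes (25.0%). How often ratios of other gene pairs do so was not computed, so this share has no measure beside it. Which gene of a pair stands on top was a free choice, so nothing is read from the direction these ratios share. With 3 libraries against 3 the smallest p of the two-sided exact permutation test is 0.10, which all 5 reached, and the adjusted p over the 20 ratios was 0.364, so none passed the test. Beside Pdk1 to Pdk2, these were the ratios of Suclg1 to Sucla2, Idh2 to Idh3a, Pdp1 to Pdk2 and Sdhc to Sdha. The ratio of Suclg1 to Sucla2 was 0.619, 0.594 and 0.705 in Cfp1-cKO hearts, against 0.490, 0.533 and 0.431 in WT hearts, which is 1.32 times as high. The ratio of Idh2 to Idh3a was 3.05, 2.97 and 2.83 in Cfp1-cKO hearts, against 2.53, 2.53 and 2.00 in WT hearts. The ratio of Sdhc to Sdha was 0.419, 0.384 and 0.369 in Cfp1-cKO hearts, against 0.318, 0.330 and 0.339 in WT hearts. In each of these 3 pairs the WT values stood below all Cfp1-cKO values. The ratio of Pdp1 to Pdk2 was 0.238, 0.249 and 0.290 in Cfp1-cKO hearts, against 0.234, 0.230 and 0.187 in WT hearts, and its groups nearly touched. The ratio of Mpc1 to Mpc2 overlapped, at 0.560, 1.05 and 1.06 in Cfp1-cKO hearts and at 1.13, 0.822 and 1.08 in WT hearts. The number of ratios that did not overlap was 9, 6 and 9 without Cfp1-cKO replicate 1, 2 or 3 and 7, 6 and 11 without WT replicate 1, 2 or 3, where fewer libraries also make overlap rarer.

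**Figure D4:**
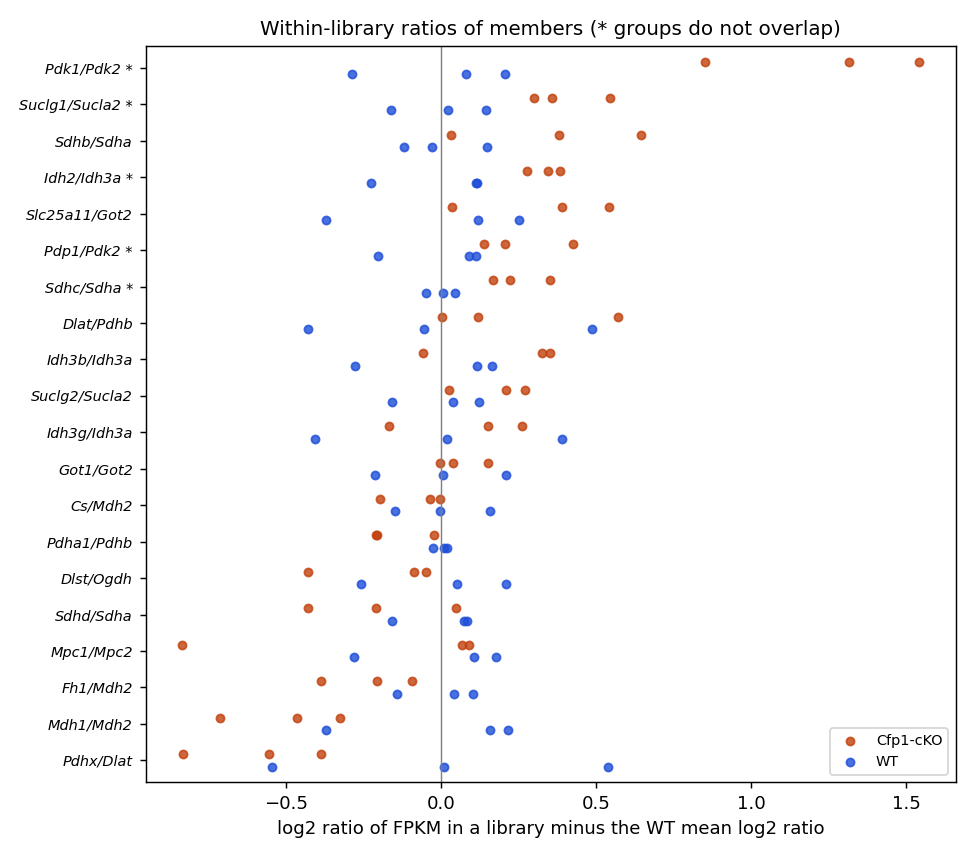
Within-library ratios of 20 pairs of members, as the log2 ratio in a library minus the mean of the 3 WT libraries, with Cfp1-cKO above WT in each row. The row of Pdk1 to Pdk2 has the widest gap, with Cfp1-cKO ratios between 0.513 and 0.828 against WT ratios between 0.233 and 0.328.

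Other genes of pyruvate and TCA cycle metabolism had calls in both directions. Of 40 listed genes 34 were tested, of which 2 were lower and 8 higher in Cfp1-cKO hearts, and after scaling 4 were lower and 1 was higher. Over all tested genes 1.68% were lower and 21.1% higher as deposited, and 3.25% were lower and 3.73% higher after scaling. The share of the list that was called higher as deposited was thus near that of all tested genes. Their median log2 fold change was 0.24 as deposited and -0.11 after scaling. Pdk3, a further pyruvate dehydrogenase kinase, had the largest change, at 16.2, 17.2 and 19.7 FPKM in the Cfp1-cKO hearts, against 5.18, 4.02 and 3.79 FPKM in the WT hearts (log2 fold change 1.81 ± 0.16, SE, adjusted p = 0.000493, limma). It was also the gene called higher after scaling (1.42, adjusted p = 0.00269), and its call held whichever library was left out. The kinase Pdk4, named for its place beside Pdk1 to Pdk3, was the most abundant of the 4, at 494, 167 and 366 FPKM in the Cfp1-cKO hearts and at 365, 363 and 627 FPKM in the WT hearts, and was not called (adjusted p = 0.351). Me2, the mitochondrial malic enzyme, Slc25a10, the dicarboxylate carrier, and Pck2, the mitochondrial phosphoenolpyruvate carboxykinase, rose by 1.29, 0.98 and 0.82 on the log2 scale as deposited and were not called after scaling. All 3 calls as deposited were lost without Cfp1-cKO replicate 2 or 3 or WT replicate 1. That of Me2 was also lost without Cfp1-cKO replicate 1, and that of Pck2 without WT replicate 2. Ldhb, the heart subunit of lactate dehydrogenase, was lower and was named after its values were seen. It stood at 425, 351 and 370 FPKM in the Cfp1-cKO hearts, against 563, 613 and 492 FPKM in the WT hearts (log2 fold change -0.54, adjusted p = 0.0422, limma). Ldhb was called after scaling as well, and its call as deposited was kept only when WT replicate 3 was the library left out. Without Cfp1-cKO replicate 1, 2 or 3 the list had 5, 1 and 1 genes higher and 1, 0 and 1 lower, and without WT replicate 1, 2 or 3 it had 1, 4 and 8 higher and 0, 1 and 2 lower.

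Neighbouring pathways in the same fit were placed beside the members. As the measure for their counts, 1.68% of all tested genes were called lower and 21.1% higher as deposited. Of 21 tested genes of fatty acid oxidation, the other source of acetyl-CoA, 8 were lower and none was higher in Cfp1-cKO hearts, with a median log2 fold change of -0.45. None was higher at an unadjusted p below 0.05 either, by limma or by voom. Those with the lowest fold changes were Mlycd (-1.18), Acaa2 (-1.08), Cpt2 (-0.93) and Acsl1 (-0.92). Without Cfp1-cKO replicate 1, 2 or 3 the number lower was 6, 0 and 5, and without WT replicate 1, 2 or 3 it was 3, 7 and 7. Of 7 core subunits of complex I, 2 were lower, Ndufs7 (-0.74) and Ndufs1 (-0.70), and the median was -0.39. Their number was 1, 0 and 0 without Cfp1-cKO replicate 1, 2 or 3 and 0, 1 and 2 without WT replicate 1, 2 or 3. Of 17 tested genes of glycolysis, which makes the pyruvate, 1 was lower and 3 were higher, with a median of 0.32 as deposited and of -0.11 after scaling. Eno3, the muscle enolase, fell by 1.12 on the log2 scale, while the phosphofructokinases Pfkl (1.10) and Pfkp (1.05) and the mutase Pgam1 (0.85) rose. Of these 4, Eno3 and Pfkp were also called after scaling, and their calls as deposited held whichever library was left out. The calls of Pfkl and Pgam1 were both lost without Cfp1-cKO replicate 2 or WT replicate 1, and that of Pfkl also without Cfp1-cKO replicate 3. The median of the members, -0.27 as deposited, lay between those of complex I and glycolysis, and whether the lists differ from each other was not tested.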

How the data were processed

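RNA of 6 heart samples was sequenced after TruSeq library preparation. The authors aligned the reads, counted fragments per gene and deposited FPKM values for 26881 genes, and both deposited tables held identical values. The authors named DESeq, Bowtie2 and TopHat in the paper, while the notes of the submitters list GRCm38, HISAT2 2.1.0, Bowtie2 2.2.3, HTSeq 0.6.0, TopHat2 and DESeq2, without their order. Library totals were worked back from the steps of 1 fragment in the FPKM values, which came out whole within 0.02 in all libraries for 89.1% of genes with exon lengths of GENCODE release M21. FPKM are not counts, so limma 3.58.1 (R 4.3.3, variance trend, genotype only) was fitted to log2(FPKM + 1) of the 11017 genes whose mean reached 1 FPKM. This scale understates fold changes of low genes. Calls needed an adjusted p under 0.05 with a log2 fold change over 0.5 in size. The procedure was also run on simulated data with known fold changes. That simulation had no shift of the whole table, so it does not show how calls behave under the shift seen here. Replicates differed beyond sampling noise in every pair, so each library counted once. Ratios were tested with scipy 1.17.1 (Python 3.11.15).

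The members and lists were chosen with earlier results of these data known. Values per library are given for members called in either scaling, for the highest and lowest fold change of each group and for both genes of ratios that did not overlap, and of each other list up to 4 called genes are named by size of fold change. Alternatives covered scaling, pseudocount, filter, variance moderation, library weights, a replicate block, the fold threshold and each library left out. Voom on the recovered fragments was added after seeing the data. The promoter table is RefSeq on GRCm38.p6. The fold changes and p-values that the study published were not used. The values of 1 listed gene are not reported here.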

Additional observations from a re-analysis of the deposited data

How the results depend on the processing

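The median fold change of the members stayed below 0 under every alternative run, and none reversed a called member. Median-of-ratios scaling moved the members to 13 lower, 0 higher and a median of -0.71, the other pathway genes to 4 lower and 1 higher, fatty acid oxidation to 13 lower and glycolysis to 2 lower and 1 higher. Scaling to cardiomyocyte markers left 2 members, 1 other pathway gene, 4 genes of fatty acid oxidation and 0 of complex I lower. With no filter on low values 3 members, 1 other pathway gene, 5 genes of fatty acid oxidation and 1 of complex I were lower and 2 other pathway genes higher. The other pathway genes had 3 higher without mitochondrially encoded and haemoglobin genes, 4 higher at a mean of at least 5 FPKM, and 1 lower and 4 higher by voom. Library weights gave 2 members higher and 3 genes of glycolysis lower and 6 higher. The pseudocount of 0.1 FPKM, the absence of a variance trend and the absence of a fold threshold moved none of these counts by over 1.5 times. The causes were not tested. Same-numbered libraries deviated together with correlations of 0.108, 0.036 and 0.104, so the numbers were not taken to pair the samples. Each Cfp1-cKO library correlated best with the WT library of its own number. With the replicate number as a block, 7 members were lower and 1 higher, other pathway genes had 1 lower and 4 higher, glycolysis had 2 lower and complex I had 1 lower. After scaling the block left 7 members lower. With 1 library left out, members lower ranged from 1 to 5 and members higher from 0 to 2, with a median between -0.29 and -0.24. Other pathway genes lower ranged from 0 to 2 and higher from 1 to 8, fatty acid oxidation lower from 0 to 7, glycolysis lower from 1 to 2 and higher from 1 to 5, complex I lower from 0 to 2, and ratios that did not overlap from 6 to 11. With 3 libraries a group, single ratios cannot pass the exact test.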

Other observations

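Beyond the genes named so far, 4 other genes around the cycle were higher in the Cfp1-cKO hearts as deposited, as were 21.1% of all tested genes. These 4 were named after their values were seen. Slc16a1, a carrier of lactate and pyruvate in the plasma membrane, was higher by 0.72 on the log2 scale (adjusted p = 0.0469, limma), Pcx, which makes oxaloacetate from pyruvate, by 0.66 (adjusted p = 0.0297), Nfu1, an iron-sulphur scaffold needed for lipoate, by 0.54 (adjusted p = 0.0338), and Glud1, glutamate dehydrogenase, by 0.51 (adjusted p = 0.0466). None of the 4 was called after median-of-ratios scaling, where their fold changes were 0.28, 0.42, 0.14 and 0.08. The call of Nfu1 as deposited was lost whichever library was left out, those of Slc16a1 and Glud1 were kept only without WT replicate 3, and that of Pcx was lost without Cfp1-cKO replicate 2 or 3 or WT replicate 1. Nnt, the transhydrogenase of the inner membrane, was below the filter in both genotypes, at no more than 0.181 FPKM in the Cfp1-cKO hearts and 0.317 FPKM in the WT hearts.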
